A study of Mus musculus with 12 samples.

Results

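The genes described here are 9 mouse genes of sterol sensing and sterol export, taken out of 55359 genes in a liver RNA-seq count table by matching Ensembl gene IDs, version removed, to gene symbols. They comprised the oxysterol receptors Nr1h3 (LXR-alpha) and Nr1h2 (LXR-beta), the exporters Abcg5, Abcg8, Abca1 and Abcg1, and the sterol transport and uptake genes Scarb1, Gramd1b and Mylip. The 12 livers, 4 per group, were from male C57BL/6NTac mice. The lean group was fed normal chow and dosed with Control-mRNA. The HFD control group was fed a high-fat diet (HFD) and dosed with Control-mRNA, and the NM-FGF19 group was fed the same diet and dosed with NM-FGF19 mRNA. FGF19 is an intestinal hormone that acts on the liver and represses bile acid synthesis. All 12 mice received weekly injections of mRNA in lipid nanoparticles (LNPs) for 6 weeks, and liver was taken 24 hours after the final one. Age is labelled as 24 weeks, and feeding as 21 weeks before treatment in one place and 28 weeks in another. The columns of the HFD control group carry the name mOX40L and those of the lean group do not, so whether both groups received the same control mRNA cannot be told from the labels. Differences between these groups are named by the diet below, and a difference in control mRNA cannot be told apart from it.

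LXRs are nuclear receptors that bind oxysterols, pair with RXR on DNA and switch on genes that remove cholesterol from cells. In hepatocytes the ABCG5 and ABCG8 proteins join as a heterodimer that moves sterols into bile, while ABCA1 loads cholesterol and phospholipid onto apolipoprotein A-I to form HDL. The SREBP2 pathway works in the opposite sense, raising cholesterol synthesis and LDL uptake when cell sterol is low. In whole liver, fewer cells of a type and less RNA per cell cannot be told apart.

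Libraries held 23743415 to 33257260 counted reads, so that 3 reads, the floor used here, were worth 0.0792 to 0.153 CPM (counts scaled to library totals adjusted by TMM). All 9 genes passed the filter on low counts, with 62 to 15093 reads per gene and library. The summed level of 8 hepatocyte markers was 83316 to 116980 CPM in lean, 52081 to 72769 CPM in HFD control and 85861 to 130060 CPM in NM-FGF19 livers. Alb, for albumin, made up most of that sum, at a mean of 75269 CPM in NM-FGF19 livers. Of the 8, 1 was lower in HFD control than in lean livers, Ambp, which did not pass without HFD control 1 or 3, while 2 passed without lean 1 or HFD control 2. DESeq2 called 4 lower, and in edgeR 0 passed with the replicate number as a block or without lean 3 and HFD control 3. At an unadjusted edgeR p under 0.05, 4 were lower and 0 higher in this comparison, with a median of −0.65. Between NM-FGF19 and HFD control livers 0 passed in edgeR, with 2 higher and 0 lower at an unadjusted p under 0.05 and a median of 0.18. There DESeq2 called 2 higher, and edgeR called 1 higher without the low-count filter, without lean 3 or without NM-FGF19 3. Between NM-FGF19 and lean livers 0 passed in edgeR, with 3 lower at an unadjusted p under 0.05 and a median of −0.18. On the first 2 principal components, the libraries at the largest distance from their group centres were lean 3 and HFD control 3, and lean 3 had the lowest TMM factor, 0.779. Means are given ± SD (n = 4) and differences between groups as log2 fold changes ± SE. The test was edgeR's quasi-likelihood test, with p-values adjusted after Benjamini and Hochberg over all 15274 genes tested and a threshold of 0.05. Scaling by library totals alone, without TMM, moved the median change of all genes from −0.02 to 0.29 for HFD control against lean, to −0.13 for NM-FGF19 against HFD control and to 0.17 for NM-FGF19 against lean.

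Of the 9 genes, 4 rose in HFD control against lean livers, namely Abcg5, Abcg8, Abcg1 and Gramd1b, and the other 5 did not pass. Among all genes tested, 8.33% were called in this comparison, 5.04% higher and 3.29% lower. By library totals alone, 2383 genes were called higher and 228 lower, against 770 and 502 with TMM. The CPM of the same 4 genes did not overlap between the 2 groups, which was so for 15.3% of all genes in either direction, 8.4% higher and 6.89% lower. The other 5 genes had unadjusted p-values of 0.176 to 0.566. The call of 4 genes was the same in all 22 alternative analyses, including the one without lean 3 and HFD control 3. In NM-FGF19 against HFD control livers 1 gene fell, Gramd1b, against 0.432% of all genes called, 0.282% higher and 0.151% lower. By totals alone 26 genes were called higher and 30 lower in this comparison, against 43 and 23 with TMM. In NM-FGF19 against lean livers 1 gene rose, again Gramd1b, against 1.49% of all genes called, 1.01% higher and 0.484% lower. There, totals alone called 346 genes higher and 52 lower, against 154 and 74 with TMM. The comparisons share groups, so their results are not independent of one another.

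**Figure D1:**
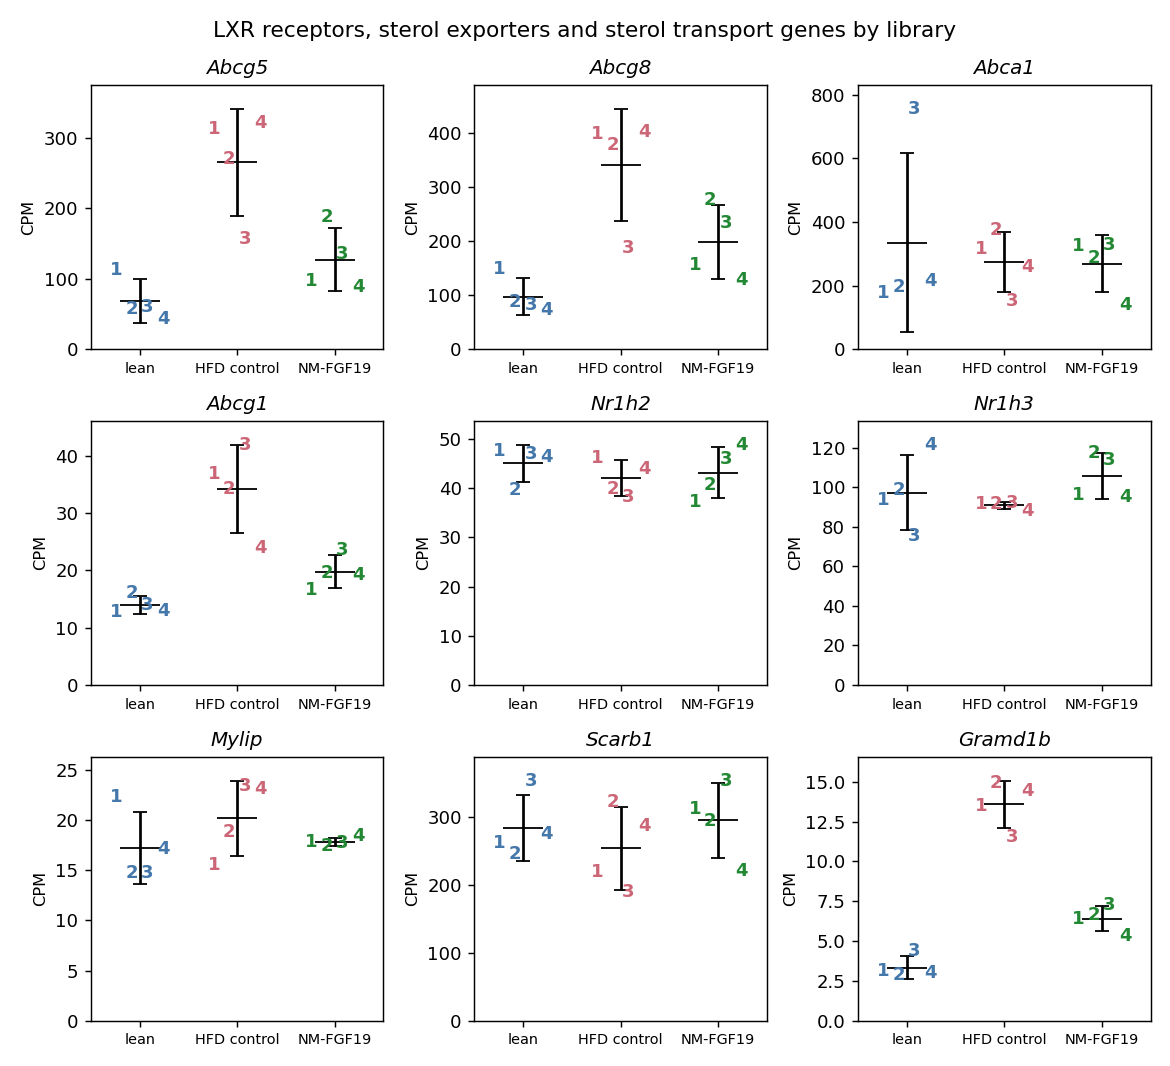
CPM (y axis, linear, from 0) of the 9 genes in the 3 groups (x axis); each digit is 1 library at its replicate number, and the black bar and whiskers are the mean and SD of 4 libraries. The HFD control libraries lie above all lean libraries for Abcg5, Abcg8, Abcg1 and Gramd1b, and lean 3 lies apart for Abca1.

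**Figure D2:**
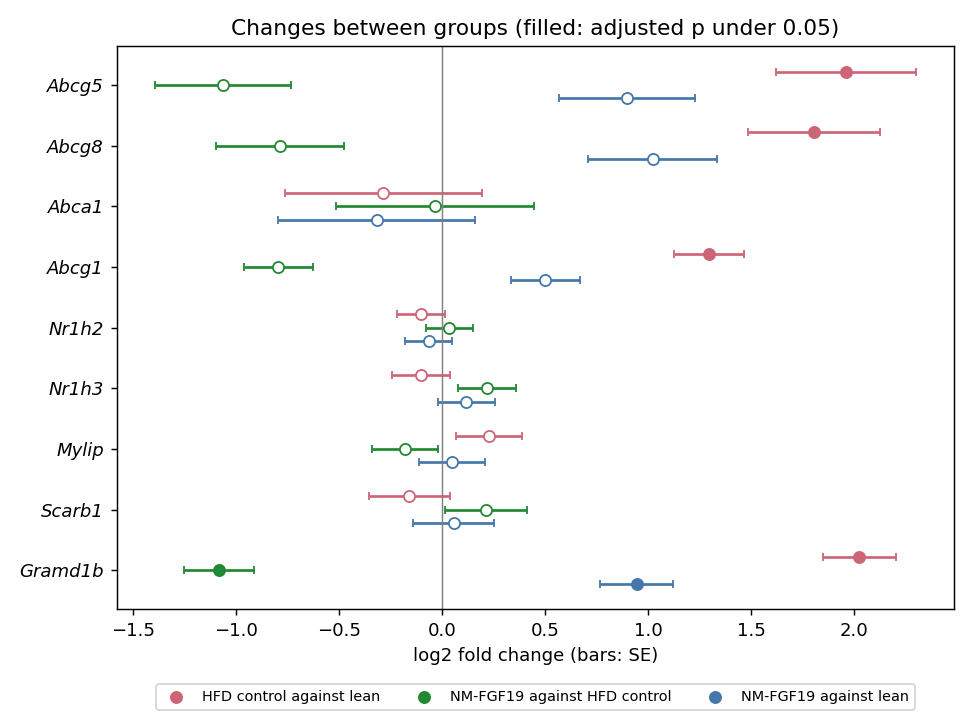
Log2 fold change (x axis) of each gene (y axis) in the 3 comparisons, with bars of 1 SE; filled points have an adjusted p under 0.05. In NM-FGF19 against HFD control Gramd1b alone is filled. The 4 genes filled in HFD control against lean are below 0 there, a sign that the shared HFD control group favours.

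Abcg5 (ENSMUSG00000040505.14, chromosome 17) encodes one partner of the biliary sterol exporter. Its levels were 113, 56.5, 59.8 and 43.1 CPM in lean livers 1 to 4, 312, 270, 156 and 321 CPM in HFD control livers, and 96.4, 187, 136 and 88.8 CPM in NM-FGF19 livers. Every HFD control library was above every lean library, with HFD control 3 the lowest of its group and lean 1 the highest of its own. The rise from 68.1 ± 30.8 to 265 ± 75.7 CPM was a log2 change of 1.96 ± 0.34 (adjusted p = 0.00848, edgeR). NM-FGF19 livers averaged 127 ± 45.1 CPM, and their range overlapped that of HFD control livers because NM-FGF19 2 was above HFD control 3. The difference from HFD control was −1.06 ± 0.33 (adjusted p = 0.288), and that from lean was 0.90 ± 0.33 (adjusted p = 0.189).

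Abcg8 (ENSMUSG00000024254.16, chromosome 17) encodes the other partner. It measured 149, 87, 82.2 and 71.7 CPM in lean livers 1 to 4, 399, 378, 187 and 401 CPM in HFD control livers, and 156, 276, 233 and 128 CPM in NM-FGF19 livers. HFD control 3 was again the lowest of its group and lean 1 the highest of the lean livers, and the lean and HFD control groups did not overlap. The diet difference was 1.81 ± 0.32 (adjusted p = 0.00848, edgeR). NM-FGF19 livers averaged 198 ± 68.5 CPM, with a difference of −0.78 ± 0.31 from HFD control (adjusted p = 0.459) and of 1.02 ± 0.31 from lean (adjusted p = 0.119). DESeq2 called the last difference (adjusted p = 0.0243), while over all 22 alternatives its adjusted p ranged up to 0.273.

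Both genes moved together from library to library. The correlation of their deviations from group means on the log2 scale was 0.971 over 12 libraries, and 0.960 without HFD control 3 and lean 1, the libraries with the largest Abcg5 deviations. These points share library and depth. The ratio of Abcg5 to Abcg8 counts was 0.601 to 0.757 in lean, 0.715 to 0.838 in HFD control and 0.582 to 0.696 in NM-FGF19 livers. The ratio was thus higher in each HFD control library than in any NM-FGF19 library, a difference noticed in the data and not tested. In the GENCODE M21 annotation the 2 genes share 82 exonic bases on opposite strands, 3.02% of the exon length of Abcg5 and 2.19% of that of Abcg8. If counting ignored strand, reads there could be counted for either gene or for neither. The sources used here do not state the setting.

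**Figure D3:**
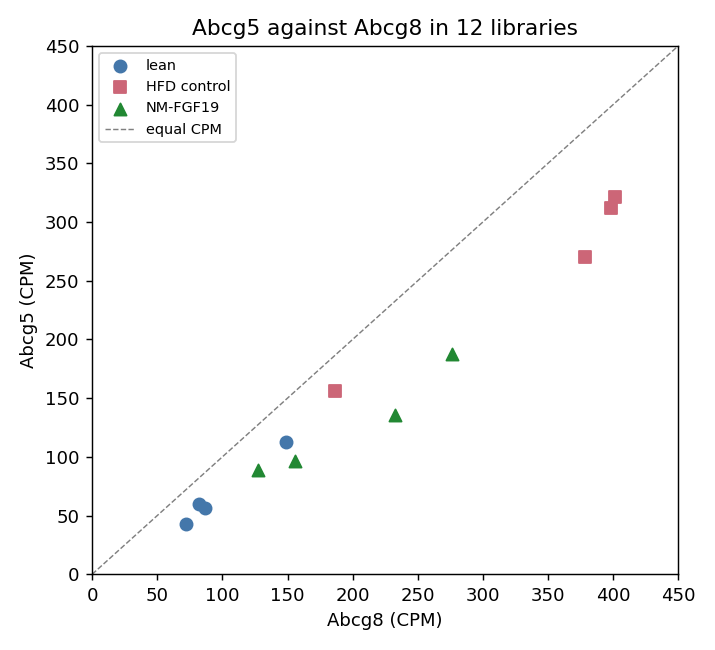
Abcg5 (y axis) against Abcg8 (x axis), both in CPM, with 1 point per library and a dashed line at equal CPM. The 12 points follow a single band from lean 4 at 71.7 CPM of Abcg8 to HFD control 4 at 401 CPM, and HFD control 3 lies at 187 CPM.

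A start site of Abcg8 lies head to head with that of Abcg5, and the sequence between them is shown because these 2 genes moved together. In RefSeq on GRCm38.p6, an older build than the mm39 of the counts, the Abcg5 start on the minus strand and this Abcg8 start on the plus strand are 110 bases apart. RefSeq gives Abcg8 a second window at chr17:84676052-84676351, inside the span of Abcg5, which is not drawn or printed here. Their promoter windows, each running from 250 bases before to 50 bases after the start, share 209 bases. The window of Abcg8 at chr17:84682871-84683170, plus strand, is printed 5′ to 3′ with the letters shared with the Abcg5 window in capitals.
Abcg8: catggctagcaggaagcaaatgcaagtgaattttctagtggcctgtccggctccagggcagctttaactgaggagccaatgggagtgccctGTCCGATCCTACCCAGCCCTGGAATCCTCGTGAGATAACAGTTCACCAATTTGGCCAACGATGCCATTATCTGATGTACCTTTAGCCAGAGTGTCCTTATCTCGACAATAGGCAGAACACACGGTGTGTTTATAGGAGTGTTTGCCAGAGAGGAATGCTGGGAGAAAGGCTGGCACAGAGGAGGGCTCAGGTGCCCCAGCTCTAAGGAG
A search of both strands for the GATA element AGATAA found 3 exact matches within the shared stretch, and 11.2% of 32851 mouse promoter windows of this length held at least 1 match and 0.107% held 3 or more. This motif was chosen with the sequence in view. Counted along Abcg5, matches on its own strand lie at −52 to −47 and −22 to −17, and one on the opposite strand lies at 12 to 17. The direct repeat 4 that LXR and RXR recognise, which is AGGTCA followed by any 4 bases and AGGTCA again, was not found with up to 3 mismatches in the windows of either gene, and the LRH-1 element TCAAGGTCA was not found with up to 1 mismatch. These are descriptions of letters in short windows, not of binding.

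**Figure D4:**
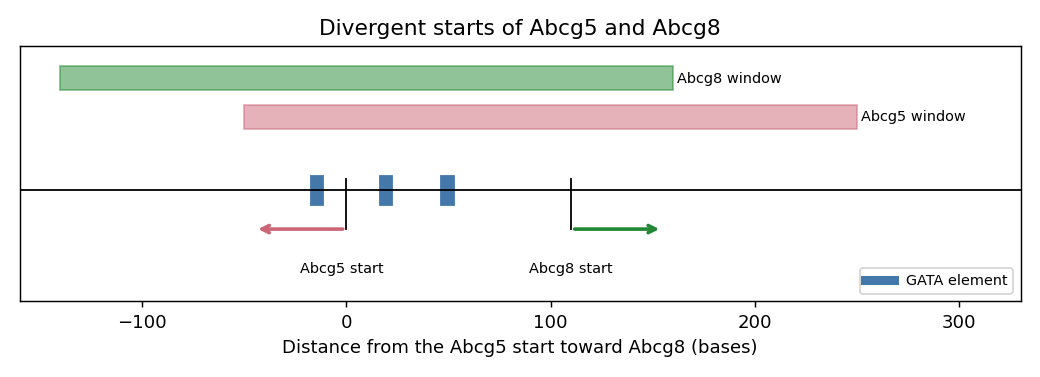
Distance from the Abcg5 start toward Abcg8 in bases (x axis), with arrows at the start and in the direction of each gene, bars for the 2 promoter windows, and blue boxes for the AGATAA matches on either strand. The start sites drawn are 110 bases apart, the second Abcg8 start is left out, and the windows share 209 bases, which hold the 3 matches.

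Gramd1b (ENSMUSG00000040111.18, chromosome 9) encodes Aster-B, a protein of the endoplasmic reticulum that carries cholesterol inward from the plasma membrane. It was the lowest of the 9 genes, at 3.12, 2.88, 4.39 and 2.97 CPM in lean livers 1 to 4, 13.5, 14.9, 11.5 and 14.4 CPM in HFD control livers, and 6.38, 6.66, 7.29 and 5.34 CPM in NM-FGF19 livers. The 3 groups did not overlap, with NM-FGF19 livers between the other two. It rose by 2.02 ± 0.18 in HFD control against lean livers (adjusted p = 0.000476, edgeR). In NM-FGF19 against HFD control livers it changed by −1.08 ± 0.17 (adjusted p = 0.0156). In NM-FGF19 against lean livers it rose by 0.94 ± 0.18 (adjusted p = 0.022). Counts behind these values were 62 to 91, 431 to 514 and 162 to 218 reads per library for the lean, the HFD control and the NM-FGF19 group.

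The diet call of Gramd1b was kept in all 22 alternatives, and the other 2 calls were not. The fall in NM-FGF19 livers missed the threshold without HFD control 1 (adjusted p = 0.0607), without HFD control 4 (0.0779), without NM-FGF19 1 (0.0671) and without NM-FGF19 2 (0.0587), with changes of −1.10 to −1.05 in those fits. The rise over lean missed it without lean 1 (adjusted p = 0.0534), lean 2 (0.0635), lean 4 (0.0695), NM-FGF19 1 (0.0626) or NM-FGF19 3 (0.0514), with changes of 0.88 to 0.95, and with only those 2 groups in the fit (0.0732). In GENCODE M21, exons of Gramd1b share 114 bases with 1700110K17Rik and 84 bases with Gm17540, both on the opposite strand.

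Abcg1 (ENSMUSG00000024030.8, chromosome 17) encodes an exporter that passes cholesterol to HDL and is abundant in macrophages. It measured 12.8, 16.1, 14 and 12.9 CPM in lean livers 1 to 4, 36.8, 34.2, 41.9 and 23.8 CPM in HFD control livers, and 16.6, 19.5, 23.6 and 19.2 CPM in NM-FGF19 livers. No HFD control library overlapped either other group, and HFD control 4, the lowest of its group, was just above NM-FGF19 3. The rise on the high-fat diet was 1.29 ± 0.17 (adjusted p = 0.00267, edgeR). The difference between NM-FGF19 and HFD control livers was −0.79 ± 0.17 and missed the threshold (adjusted p = 0.0666). It passed without HFD control 4 (adjusted p = 0.032), without the filter on low counts (0.0272), with library totals alone (0.0447) and with DESeq2 (0.00308), over a range of 0.00308 to 0.237 in 22 alternatives. NM-FGF19 livers, all above the lean livers, differed from them by 0.50 ± 0.17 (adjusted p = 0.15). Groups that did not overlap were found for 5.62% of all genes between NM-FGF19 and HFD control livers, 3.23% higher and 2.38% lower, and for 10.3% between NM-FGF19 and lean livers, 5.46% higher and 4.84% lower.

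Markers of other liver cells also differed between these groups, and their part in the Abcg1 and Gramd1b values was not tested. Of 9 markers of recruited and lipid-associated macrophages, 5 were higher in HFD control than in lean livers (Itgax, Ccr2, Cx3cr1, Trem2 and Gpnmb), 0 were lower and 4 did not pass. Gpnmb, a marker of lipid-laden macrophages, went from 0.297 ± 0.223 to 42.8 ± 31.8 CPM with the diet and was at 14.3 ± 7.62 CPM in NM-FGF19 livers. Between NM-FGF19 and HFD control livers 0 of the 9 passed (Gpnmb adjusted p = 0.34, edgeR). All 9 differences were negative there, with 3 lower at an unadjusted edgeR p under 0.05. Between NM-FGF19 and lean livers 4 were higher (Itgax, Ccr2, Cx3cr1 and Gpnmb), 0 were lower and 5 did not pass. Limma voom called 2 higher there and DESeq2 5. The summed level of the 9 was 162 to 407 CPM in lean, 193 to 531 CPM in HFD control and 142 to 321 CPM in NM-FGF19 livers. That sum does not follow the 5 genes, since Spp1 and Lyz2 carried 114 and 88.8 CPM of it in lean livers, and Spp1 was at 59.2 CPM in HFD control livers.

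Of 6 resident Kupffer cell markers, 5 were lower in HFD control than in lean livers (3 without lean 3 and HFD control 3). Their sum was 423 to 578 CPM in lean, 125 to 461 CPM in HFD control and 91.5 to 376 CPM in NM-FGF19 livers, of which Cd5l alone gave 206 CPM on average in HFD control livers. Between NM-FGF19 and HFD control livers the sum and the list went opposite ways, because Cd5l had a difference of −0.76 and the other 5 had positive values, with a median of 1.84 over the 6. In edgeR 0 of the 6 passed there, with 3 higher at an unadjusted p under 0.05, and DESeq2 called 3 higher and limma voom 0. Between NM-FGF19 and lean livers 0 passed in edgeR, but all 6 differences were negative, with a median of −1.87. At an unadjusted edgeR p under 0.05, 4 were lower in that comparison, and DESeq2 called 4 lower and limma voom 3.

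Stellate cell markers were higher with the diet for 3 of 6 (0 without lean 3 and HFD control 3, and 1 without any one of lean 1, 2 or 3, HFD control 1, 3 or 4, or NM-FGF19 1), with sums of 78.7 to 93.7, 157 to 386 and 129 to 362 CPM in the same order of groups. In NM-FGF19 against lean livers 1 of the 6 stellate markers was higher, Reln, a call that 13 of 22 alternatives moved. At an unadjusted edgeR p under 0.05, 4 of them were higher and 0 lower there. Of 6 sinusoidal endothelial markers 1 was higher in HFD control than in lean livers, a call that 13 of 22 alternatives moved. It was 0 without lean 1, 2 or 4, without any one HFD control library and without NM-FGF19 1 or 3, and it was 3 with library totals alone. Sums were 313 to 376, 326 to 423 and 342 to 411 CPM. All markers of these 4 lists had reads in each of the 12 libraries. Of 5 cholangiocyte markers 1 was lower, a call lost in 17 of 22 alternatives, among them leaving out any single library other than lean 1. The sums, 53.7 to 279, 32.8 to 126 and 33.3 to 120 CPM, were mostly Spp1, which the macrophage list also holds. Of 4 lymphocyte markers 0 passed in edgeR, DESeq2 or limma voom, and 0 had an unadjusted p under 0.05, with sums of 1.49 to 3.25, 1.39 to 4.38 and 2.81 to 3.44 CPM. Of 5 adipocyte markers only Cfd was tested, and it rose from 0.0465 ± 0.0929 to 10 ± 8.46 CPM with the diet. It was at 0.0756 ± 0.127 CPM in NM-FGF19 livers. Cfd had 0 reads in 3 lean and 2 NM-FGF19 libraries, and both of these group means lie below the floor of 3 reads. Its diet call was lost with limma voom, with the stricter filter and without lean 3 and HFD control 3. A call of Cfd as lower in NM-FGF19 than in HFD control livers was lost in 13 of 22 alternatives. Lep and Plin1 had 0 reads in all lean and HFD control libraries.

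Abca1 (ENSMUSG00000015243.5, chromosome 4) encodes the exporter that starts HDL formation. Its levels were 177, 194, 755 and 213 CPM in lean livers 1 to 4, 314, 375, 153 and 259 CPM in HFD control livers, and 323, 286, 328 and 139 CPM in NM-FGF19 livers. Lean 3 was 3.87 times the mean of the other 3 lean livers, and without it each lean value would lie below all but HFD control 3 and NM-FGF19 4. The difference was −0.28 ± 0.48 for HFD control against lean (adjusted p = 0.766), −0.03 ± 0.48 for NM-FGF19 against HFD control (adjusted p = 0.992) and −0.32 ± 0.48 for NM-FGF19 against lean (adjusted p = 0.797). Without lean 3 the first and last became 0.52 (adjusted p = 0.373) and 0.48 (adjusted p = 0.524), so the sign of both rests on that library. Without lean 3 and HFD control 3 the first was 0.72 (adjusted p = 0.178).

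The Abca1 promoter window is shown because it is the one window among these genes with a match to the LXR direct repeat 4. It lies at chr4:53159846-53160145, minus strand, in RefSeq on GRCm38.p6, and is printed 5′ to 3′ along the gene with the match in capitals.
Abca1: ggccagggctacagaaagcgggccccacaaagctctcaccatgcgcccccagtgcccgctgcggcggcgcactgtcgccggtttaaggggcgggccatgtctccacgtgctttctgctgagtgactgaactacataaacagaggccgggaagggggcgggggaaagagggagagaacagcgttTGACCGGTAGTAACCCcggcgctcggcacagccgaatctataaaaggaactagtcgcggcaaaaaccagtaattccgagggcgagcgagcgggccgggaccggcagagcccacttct
The match reads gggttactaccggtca on the strand opposite to the gene, differs from the repeat at 3 of its spelled letters, and lies at −67 to −52 from the start. With up to 3 mismatches 21.9% of all 32851 promoter windows held such a match, and with up to 2 mismatches 3.02% did. RefSeq windows were at hand for 6 of the 9 genes, which leaves out Abcg1, Scarb1 and Gramd1b.

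The receptor genes differed little between groups. Nr1h3 (ENSMUSG00000002108.11, chromosome 2), the LXR form most abundant in liver, was at 93.7, 98.9, 75.4 and 121 CPM in lean livers 1 to 4, 91.8, 91.5, 92.1 and 87.8 CPM in HFD control livers, and 96.2, 117, 114 and 95.2 CPM in NM-FGF19 livers. HFD control livers fell within a ratio of highest to lowest of 1.05, inside the wider lean range, and each NM-FGF19 library was above all 4 of them. That last difference was 0.22 ± 0.14 (adjusted p = 0.712), and the diet difference was −0.10 ± 0.14 (adjusted p = 0.71). Nr1h2 (ENSMUSG00000060601.14, chromosome 7), the widely expressed form, was at 47.6, 39.5, 46.9 and 46.3 CPM in lean, 46.1, 39.9, 38.3 and 43.9 CPM in HFD control and 37.1, 40.7, 45.9 and 48.7 CPM in NM-FGF19 livers. All 3 groups overlapped, and its highest library was 1.31 times its lowest, the narrowest span of the 9 genes. Its differences were −0.10 ± 0.11, 0.04 ± 0.11 and −0.06 ± 0.11 for the diet, for NM-FGF19 against HFD control and, last, for NM-FGF19 against lean (adjusted p = 0.643, 0.972 and 0.837). Per kilobase of exon, the level of Nr1h3 was 2.14 to 3.50 times that of Nr1h2 across lean, 2.66 to 3.21 times across HFD control and 2.60 to 3.85 times across NM-FGF19 libraries.

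Scarb1 (ENSMUSG00000037936.16, chromosome 5) encodes SR-BI, the receptor through which hepatocytes take cholesteryl ester from HDL. It measured 261, 245, 353 and 274 CPM in lean livers 1 to 4, 218, 322, 189 and 287 CPM in HFD control livers, and 311, 294, 352 and 221 CPM in NM-FGF19 livers. The groups overlapped in all 3 comparisons, with lean 3 and NM-FGF19 3 the highest libraries. The differences were −0.16 ± 0.20, 0.21 ± 0.20 and 0.06 ± 0.20 in the same order (adjusted p = 0.681, 0.832 and 0.92). Mylip (ENSMUSG00000038175.11, chromosome 13) encodes IDOL, an LXR-induced ubiquitin ligase that marks the LDL receptor for breakdown. It was at 22.3, 14.7, 14.7 and 17.1 CPM in lean, 15.5, 18.8, 23.3 and 23 CPM in HFD control and 17.8, 17.4, 17.7 and 18.4 CPM in NM-FGF19 livers. NM-FGF19 livers spanned a ratio of only 1.06 and lay inside the ranges of both other groups. The differences were 0.23 ± 0.16, −0.18 ± 0.16 and 0.05 ± 0.16 (adjusted p = 0.415, 0.822 and 0.916).

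The order of the genes by level per kilobase of exon differed between groups. In lean livers the means were 38.7 for Nr1h3, 33.3 for Scarb1, 32.3 for Abca1, 26 for Abcg8 and 25.1 for Abcg5, in CPM per kilobase, and neighbours in this part of the order overlapped. The place of Abca1 rests on lean 3: without it Abca1 was at 18.8, below Abcg8 at 27.4 and Abcg5 at 26.1. Below them, without overlap between neighbours, came Nr1h2 at 13.4, Mylip at 5.32, Abcg1 at 1.91 and Gramd1b at 0.331. In HFD control livers Abcg5 at 97.7 and Abcg8 at 91 came first, overlapping each other but not Nr1h3, the next at 36.1. In NM-FGF19 livers Abcg8 at 52.9 and Abcg5 at 46.8 still led, but Abcg5 was above Nr1h3, at 42, in just 2 of 4 libraries. Mylip and Abcg1 overlapped in HFD control livers, at 6.24 and 4.68 CPM per kilobase. Gramd1b was lowest in each group, at 1.35 in HFD control and 0.637 in NM-FGF19 livers.

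Library to library within groups, Abca1 moved with Gramd1b and with Scarb1. The correlation of deviations from group means was 0.942 for Abca1 and Gramd1b over 12 libraries, and 0.864 without lean 3 and NM-FGF19 4. For Abca1 and Scarb1 it was 0.817, and 0.766 without the same pair of libraries. For Nr1h2 and Nr1h3 it was −0.0932. Among 11545 other genes with a symbol and a mean of at least 2 CPM, the profiles most like Abcg5 over the 12 libraries, group differences included, were Abcg8 (Pearson r = 0.988), Slc35a5 (0.940) and Adarb1 (0.933). Those most like Abca1 were Phf20l1 (0.960), Fem1c (0.941) and Med13 (0.934), and those most like Scarb1 were Tmx4 (0.946), 4632427E13Rik (0.925) and Rsbn1 (0.922). For Gramd1b they were Myct1 (0.928), Cept1 (0.922) and AI662270 (0.901). All of these values share libraries and depth and are descriptions without a test.

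Other genes that LXR is known to switch on mostly did not pass. Of 19 tested, 2 rose in HFD control against lean livers, 0 fell and 17 did not pass. Among all genes 8.33% were called there, 5.04% higher and 3.29% lower. At an unadjusted edgeR p under 0.05, 6 of the 19 were higher and 0 lower. The median change was 0.35 against −0.02 for all genes. Lpl, for lipoprotein lipase, rose by 1.76 ± 0.27 (adjusted p = 0.00511, edgeR), from 37.2 ± 11 to 126 ± 44.1 CPM. Arl4c, for a small GTPase, rose by 1.04 ± 0.24 (adjusted p = 0.0198), from 4.42 ± 0.264 to 9.05 ± 3.16 CPM. The 2 became 1 without lean 2 or without HFD control 3, 6 with library totals alone and 5 with DESeq2. Srebf1, for the lipogenic SREBP1 and named after its value was seen, was at 183 ± 46 CPM in lean, 351 ± 136 CPM in HFD control and 299 ± 161 CPM in NM-FGF19 livers, with a diet difference of 0.94 ± 0.36 (adjusted p = 0.124). In NM-FGF19 against HFD control livers 0 of the 19 passed in edgeR, with 6 lower and 0 higher at an unadjusted p under 0.05. DESeq2 called 3 lower there and limma voom 1, and edgeR called 1 lower with the stricter filter, without the robust option, without lean 1 and without lean 4. Cyp7a1, named after its value was seen, differed there by −4.79 ± 0.95 (adjusted p = 0.0672). The median was −0.40 against 0.00 for all genes. In NM-FGF19 against lean livers 1 of 19 fell, Cyp7a1, for the first enzyme of bile acid synthesis, with a change of −4.32 ± 0.93 (adjusted p = 0.0489). That call was lost in 13 of 22 alternatives.

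RXR partners, co-repressors and liver regulators, such as Rxra and Hnf4a, did not pass in any comparison in edgeR, DESeq2 or limma voom (0 of 10 each). At an unadjusted edgeR p under 0.05, 1 of them was lower in HFD control against lean livers and 0 were higher, and the other comparisons had 0 in either direction. Of 10 HDL and biliary export partners tested, such as Apoa1 and Abcb4, 0 passed in edgeR or limma voom in each comparison. In HFD control against lean livers edgeR called 2 lower without HFD control 2 and 2 higher with library totals alone. DESeq2 called 2 lower in HFD control against lean livers, 1 higher in NM-FGF19 against HFD control livers and 0 in NM-FGF19 against lean livers. At an unadjusted edgeR p under 0.05, 1 was higher and 3 lower in the first comparison, 2 higher and 1 lower in the second, and 0 higher and 1 lower in the third.

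Of 18 genes of sterol uptake, esterification and intracellular transport tested, 2 fell in HFD control against lean livers and 16 did not pass. Stard4, for a soluble sterol carrier, changed by −1.50 ± 0.23 (adjusted p = 0.00404, edgeR), from 126 ± 22 to 44.5 ± 7.99 CPM. In NM-FGF19 against HFD control livers 1 rose and 17 did not pass. That gene was Stard4, which rose by 1.60 ± 0.23 to 135 ± 40 CPM (adjusted p = 0.00786). The 2 that fell became 1 without HFD control 3, 1 without lean 3 and HFD control 3, and 3 without lean 1, where 1 gene was also called higher. With library totals alone 2 fell and 2 rose. For NM-FGF19 against HFD control, the 1 that rose became 2 without NM-FGF19 3, with a stricter filter, without the robust option and with DESeq2. In NM-FGF19 against lean livers 0 passed in edgeR, with 1 lower at an unadjusted p under 0.05, 1 called by DESeq2 and 0 by limma voom.

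In HFD control against lean livers SREBP2 and genes of cholesterol synthesis that it drives fell, while Abcg5, Abcg8, Abcg1 and Gramd1b rose. Of 15 tested, 15 fell in HFD control against lean livers (6 without lean 3 and HFD control 3), where 5.04% of all genes were called higher and 3.29% lower. The median change of the 15 was −2.28. Those with the smallest adjusted p, 0.00316 each, were Sqle, for squalene epoxidase, at −6.36 ± 0.83, Dhcr7, for the last step of cholesterol synthesis, at −2.58 ± 0.35, and Mvk, for mevalonate kinase, at −2.28 ± 0.31. The summed level was 1797, 2898, 2608 and 2582 CPM in lean livers 1 to 4, 775, 666, 967 and 717 CPM in HFD control livers, and 2562, 2563, 780 and 2630 CPM in NM-FGF19 livers. NM-FGF19 3 was thus within the HFD control range and the other 3 NM-FGF19 libraries within the lean range. In NM-FGF19 against HFD control livers 7 rose, 0 fell and 8 did not pass, where 0.282% of all genes were called higher and 0.151% lower. The median of the 15 was 2.13, and 15 were higher at an unadjusted edgeR p under 0.05. Mvk rose by 2.10 ± 0.31 (adjusted p = 0.0148, edgeR), Sqle by 5.48 ± 0.80 (adjusted p = 0.0161), and Idi1, for an isomerase of the same pathway, by 3.96 ± 0.61 (adjusted p = 0.0174). The 7 became 14 without NM-FGF19 3 and with DESeq2, 4 without HFD control 2, 3 without NM-FGF19 4, 2 without NM-FGF19 2, 1 without NM-FGF19 1, and 0 without HFD control 1, 3 or 4 or without lean 3 and HFD control 3. It was 3 with limma voom or without a filter on low counts, 1 with only the 2 groups in the fit, and 0 with the replicate number as a block. In NM-FGF19 against lean livers 0 of 15 passed in edgeR, DESeq2 or limma voom, and 0 did at an unadjusted edgeR p under 0.05.

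In NM-FGF19 3, where the summed SREBP2 level was low, Gramd1b and Abcg1 were the highest of their group, at 7.29 and 23.6 CPM. Abca1 and Scarb1 were highest there too, at 328 and 352 CPM, though neither passed in any comparison. Abcg5 was second, at 136 CPM. Abcg5 and Abcg8 were highest in NM-FGF19 2, at 187 and 276 CPM, where the SREBP2 sum was 2563 CPM. NM-FGF19 3 was picked out after its values were seen, and a link was not tested. Gramd1b in NM-FGF19 3 was still below each HFD control library.

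**Figure D5:**
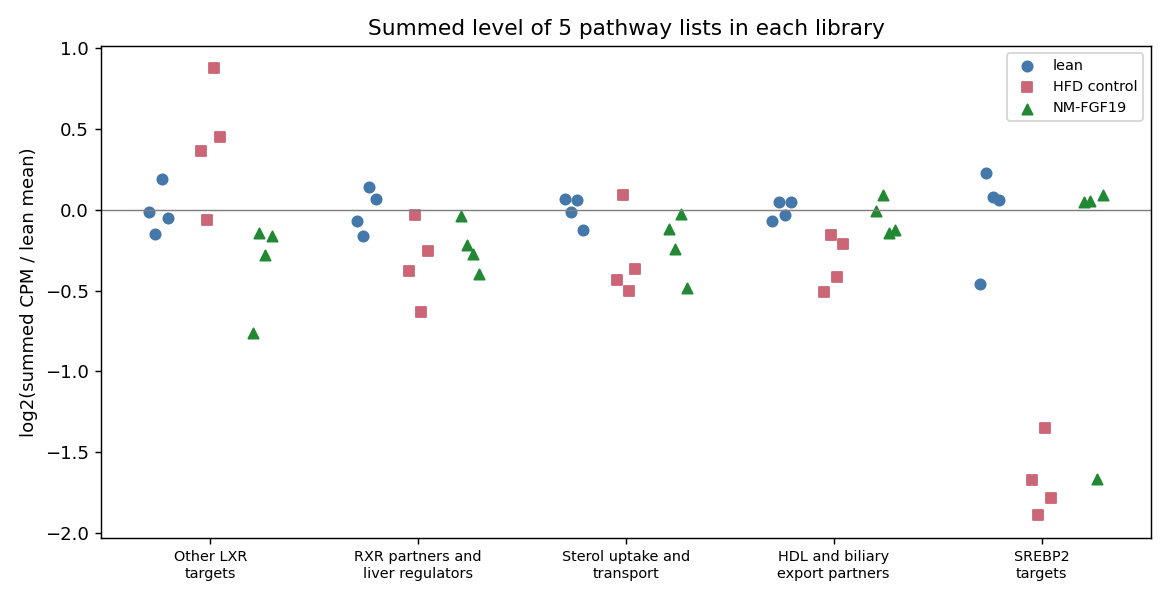
Summed CPM of each pathway list in each library, as log2 of its ratio to the mean of the lean libraries (y axis), for 5 lists (x axis), with 1 point per library. For SREBP2 targets the 4 HFD control libraries and NM-FGF19 3 lie below the other 7 libraries.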

How the data were processed

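The deposited file holds the authors' raw read counts per gene for 12 libraries. The submitters' processing notes name Trimmomatic, STAR, featureCounts and the build mm39. Not given in the sources used here: versions, gene annotation, strand setting and how reads that match several genes were counted. Per the labels, the input was 100 ng of RNA, the kit was Illumina's stranded mRNA kit, and reads were pairs of 101 nt. Each column name matched 1 sample, and 0 columns were left over. Nothing in the labels ties libraries beyond one per mouse sample, so p-values measure the spread between these samples.

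Symbols were matched for 52083 of 55359 gene IDs. edgeR 4.0.16 in R 4.3.3 tested 15274 genes that passed filterByExpr (minimum count 10) in one robust quasi-likelihood fit of all 12 libraries with group as the only term, TMM scaling, 2-sided, at an adjusted p of 0.05. The SE is the one implied by the F statistic. Log2 CPM for correlations used a prior count of 2. Levels per kilobase used exon lengths from GENCODE M21 (GRCm38), which may differ from the annotation used for counting. Replicates differed by at least 37.6 in chi-square per degree of freedom, so no library was a copy of another. Promoter windows are from RefSeq, GRCm38.p6. Alternatives used DESeq2 1.42.0 and limma 3.58.1 (voom), other scalings and filters, a fit without the robust option, 2 groups only, a replicate block and leaving out libraries. The fit was also run on simulated counts with known changes, as a check of the code only, and its outcome is not reported here.

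The 9 genes, the 5 pathway lists and the 8 marker lists were chosen with earlier results of these data known. From each list, at most 3 called genes per direction were named, in order of adjusted p, except for a result that is not reported here. Marker genes and Srebf1 were named with their values known. High-fat diet baseline mice, which the series mentions, are not analysed here. The floor covers counting error only.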

Additional observations from a re-analysis of the deposited data

Results flagged for a closer look

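Within each group of 4 libraries, the log2 CPM of each gene was searched for a library whose gap to its nearest neighbour took a share of the group's whole range above Dixon's 95% critical value for 4 samples. Of 27 groups, 5 met this, and chance alone gives about 1 in 20. HFD control 3 was low for Abcg8 (share of the range 0.923), at 187 CPM where the other 3 were at 378 to 401 CPM. Lean 3 was high for Abca1 (0.872), at 755 CPM against 177 to 213 CPM. NM-FGF19 4 was low for Abca1 (0.84), at 139 CPM against 286 to 328 CPM. Lean 2 was low for Nr1h2 (0.849), at 39.5 CPM, and HFD control 4 was low for Nr1h3 (0.87), at 87.8 CPM, both within narrow ranges.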

How the results depend on the processing

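The 22 alternatives gave 594 values for the 27 differences of single genes, of which 552 kept their direction and their side of the threshold, 12 lost a call, 5 gained one and 25 changed sign, with 0 of those 25 called. The 4 genes called in HFD control against lean livers were called in all 22. In NM-FGF19 against HFD control livers the 1 gene called became 2 with library totals alone, without a filter on low counts and with DESeq2, 0 with the replicate number as a block, and 0 to 1 without single libraries. In NM-FGF19 against lean livers the 1 called became 2 with DESeq2, 0 with the replicate block, 0 with only the 2 groups compared, and 0 to 1 without single libraries. With the block, Gramd1b had an adjusted p of 0.0671 and 0.0819 in these comparisons. The replicate numbers pair nothing in these data: over 12 pairs of libraries with the same number, deviations from group means correlated at −0.363 to 0.0712, and 0 of 12 libraries correlated best with their own number. Counts over all genes moved too, from 1272 to between 480 and 2611 for the diet, from 66 to between 18 and 285 for NM-FGF19 against HFD control and from 228 to between 40 and 969 for NM-FGF19 against lean. With the block they were 593, 18 and 40.

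Sign changes were all in differences that did not pass. With library totals alone, which shifts all genes upward in the diet comparison, Abca1, Nr1h2, Nr1h3 and Scarb1 were at 0.10, 0.21, 0.20 and 0.16 there, below the median gene at 0.29, and Nr1h2 was at −0.095 and 0.12 in NM-FGF19 against HFD control and against lean. Without lean 3 and HFD control 3, an alternative added after seeing the data, Abca1 and Scarb1 were at 0.72 and 0.11 for the diet, Nr1h2 at −0.011 in NM-FGF19 against HFD control, and Abca1 and Mylip at 0.48 and −0.0030 in NM-FGF19 against lean. Without single libraries, the diet difference ranged from −0.49 to 0.52 for Abca1 and from −0.18 to 0.042 for Nr1h3. NM-FGF19 against HFD control ranged from −0.23 to 0.18 for Abca1 and from −0.027 to 0.10 for Nr1h2. NM-FGF19 against lean ranged from −0.53 to 0.48 for Abca1, −0.013 to 0.20 for Mylip, −0.032 to 0.20 for Scarb1 and −0.13 to 0.0016 for Nr1h2. The cause was not tested. With 4 mice a group, differences of the size seen for Abcg5 and Abcg8 in NM-FGF19 livers did not pass, which does not show that they are absent.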
